A study of Mus musculus with 6 samples.

Results

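Elastic fibres give tissue its recoil, and 10 genes of that system are described here in mouse mammary tumours with and without knockdown of Bptf: Eln, Fbn1, the fibulins Fbln1, Fbln2, Fbln5, Efemp1 and Efemp2, and the microfibril-associated genes Mfap2, Mfap4 and Mfap5. They were chosen by gene family, with the differences between these same tumours already known, Efemp1 being among the strongest decreases. What the array shows for Bptf KD against control is therefore a description, and no p-value is given for them. Every probe set whose annotation names just 1 of these genes was taken, which gave 11 probe sets for 8 of the 10 genes, among 12393 genes and 22626 probe sets. Fbn1 and Efemp2 had no such probe set and were not analysed here. All 8 measured genes passed the filter on dim probe sets (a mean log2 level of at least 6.09), as did 9249 genes in all.

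The tumours came from 4T1, a mouse mammary carcinoma line. There were 3 tumours of control cells and 3 of cells with Bptf KD, made with short hairpin RNAs delivered by the retrovirus MMLV. Ifrg2r -/- (NSG) mice, as the labels spell the genotype, received 10000 cells each time in the fourth mammary fat pad, and tumours were taken after 21 days. Lymphocytes are absent from such mice, natural killer cells included, while fibroblasts, fat cells, vessels and myeloid cells of the host remain. Bptf is the largest subunit of the chromatin remodelling complex NURF. The vector of the control cells, the age of the mice and whether the hairpin cells were a clone or a pool were not stated in the sources used here, nor was whether each tumour had a mouse of its own, so that p-values measure only the spread between these tumours.

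An elastic fibre has a core of cross-linked elastin, laid down on a scaffold of microfibrils. Fibrillins form the microfibrils, small glycoproteins such as Mfap2 and Mfap5 decorate them, and the short fibulins help to place elastin and its cross-linking enzymes on them. Fibroblasts and smooth muscle cells make most of these proteins, and fibulins also occur in basement membranes. Microfibrils hold latent TGF-beta as well. The arrays measured whole tumour pieces, so fewer cells of a type and less RNA per cell cannot be told apart.

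Median log2 levels lay between 7.59 and 7.69 on the 6 arrays. The tumour labelled control 2 stood apart: a gap of 2-fold or more to the average of controls 1 and 3 was seen in 8.67% of its genes, where the other tumours, each set against its own group, had 0.443% to 2.51%. Its Bptf level on the brightest probe set (9.77) lay below both other controls (10.69 and 10.59) and among the Bptf KD tumours (9.60, 9.56 and 9.99), so the target went against its label, and directions given below count it as a control. The group difference of Bptf on the brightest probe set was -0.63, short of the threshold (limma adjusted p = 0.371). On its other 3 probe sets the tumour labelled control 2 was at 7.59, 5.41 (dim) and 6.88, below every Bptf KD tumour. The lowest Bptf KD levels there were 8.37, 6.37 and 7.27. Group differences on these probe sets were -0.57, -0.80 and -0.17, and none passed. The 3-prime minus 5-prime difference of the Actb control probe sets was 1.23 in the tumour labelled control 2 and 0.76 to 1.05 in the others. Epithelial markers (Epcam, Krt8, Krt18, Krt19, Cdh1, Cldn3, Cldn4 and Cldn7) were all above the dim level, with list means running from 10.1 up to 10.98 (control) and from 11.2 up to 11.3 (Bptf KD).

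The stretch of DNA just before a gene's start is shown for the 4 measured genes whose RefSeq promoter entry (GRCm38.p6) reaches 150 bases upstream of the gene's outermost annotated base, because all 4 were lower in every Bptf KD tumour than in every control. They lie at chr11:28853004-28853153 (Efemp1, plus strand), chr15:85205799-85205948 (Fbln1, plus strand), chr12:101819120-101819269 (Fbln5, minus strand) and chr4:141010274-141010423 (Mfap2, plus strand), each read 5′ to 3′ on the gene's strand. Capitals mark matches, on either strand, to the TATA box (TATAAA), the GC box (GGGCGG), the CCAAT box (letters as its name), the AP-1 site (TGANTCA) and the C/EBP site (TTGCNNAA).
Efemp1: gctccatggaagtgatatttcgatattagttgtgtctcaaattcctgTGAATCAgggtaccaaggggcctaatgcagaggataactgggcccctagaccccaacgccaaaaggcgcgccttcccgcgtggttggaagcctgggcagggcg
Fbln1: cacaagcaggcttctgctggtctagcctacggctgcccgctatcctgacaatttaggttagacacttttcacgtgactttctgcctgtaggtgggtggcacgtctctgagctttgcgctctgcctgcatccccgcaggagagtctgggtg
Fbln5: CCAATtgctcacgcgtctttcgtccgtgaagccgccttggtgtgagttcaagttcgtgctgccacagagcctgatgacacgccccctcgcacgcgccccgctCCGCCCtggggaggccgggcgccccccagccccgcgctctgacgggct
Mfap2: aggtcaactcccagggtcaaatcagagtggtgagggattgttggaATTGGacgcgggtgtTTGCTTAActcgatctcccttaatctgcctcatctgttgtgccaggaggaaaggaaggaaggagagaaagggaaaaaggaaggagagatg

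No motif of the 5 was in all 4 windows. Efemp1 held an AP-1 match, 103 bases before the start, a motif found in 3.87% of 13537 windows of the same length and place at protein-coding genes. The letters of that match read as the motif on both strands. Mfap2 held a C/EBP match (5.60% of windows) and a CCAAT match (28.9%), and Fbln5 a CCAAT match and a GC box (35.1%). The Fbln1 window held none of the 5, and TATAAA, found in 8.81% of windows, was in none of the 4. No matches overlapped. A match is only a stretch of letters, and binding was not measured here.

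All 8 measured genes had lower means in Bptf KD tumours. A difference below 0 was found for 40.4% of all genes tested. In 5 of the 8, every Bptf KD tumour lay below every control, a pattern held by 8.17% of all genes. Over all genes limma called 1 of the 8 lower (Efemp1), against 0.66% of genes called lower and 0.811% called in either direction. Nothing is read from these counts, since the genes were gathered with this contrast known. The median difference (log2 Bptf KD minus control) was -0.74 over the 8 genes and 0.06 over all genes tested. Without the tumour labelled control 2 the median over the 8 was -0.85 and limma called 5 of them lower (Efemp1, Fbln1, Fbln2, Fbln5 and Mfap2), with 4.45% of all genes called.

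**Figure D1:**
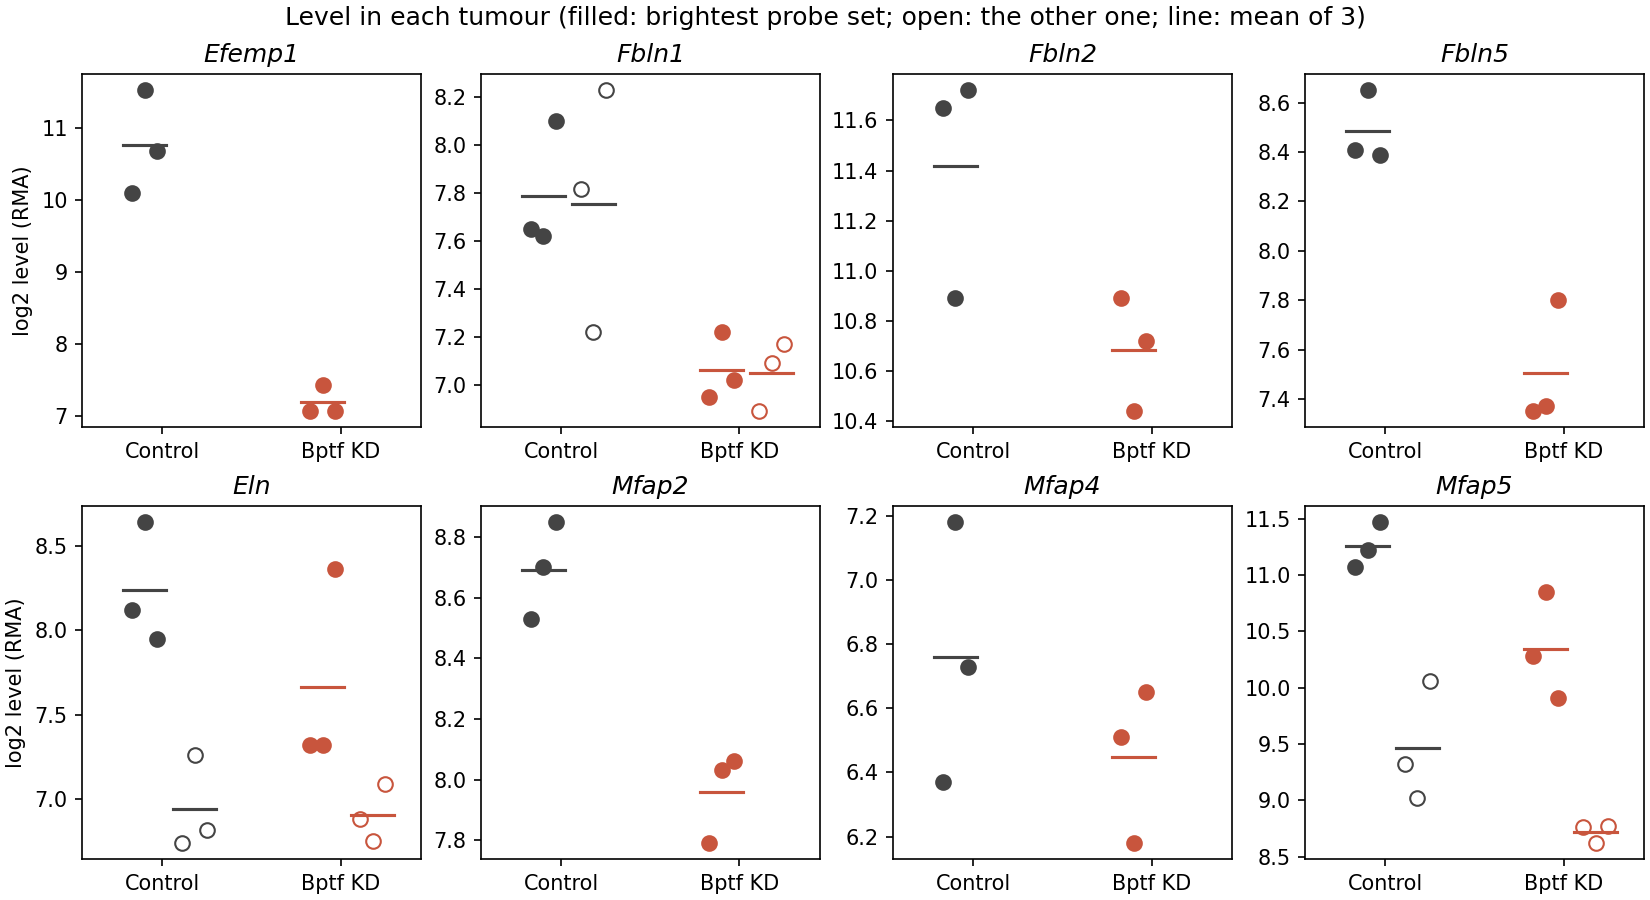
Log2 level (RMA) of the 8 measured genes in each tumour, with control tumours in grey and Bptf KD tumours in red; filled points are the brightest probe set, open points the other one, and lines the means of 3 tumours. The groups are apart in Efemp1, Fbln1, Fbln5, Mfap2 and Mfap5, touch at 10.89 in Fbln2 and overlap in Eln and Mfap4; vertical axes differ between panels and do not start at 0.

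Efemp1 encodes fibulin-3, a short fibulin of the extracellular matrix. Its level was 10.10, 11.53 and 10.68 in controls 1, 2 and 3, and 7.07, 7.43 and 7.06 in the Bptf KD tumours. The lowest control thus lay 2.67 above the highest Bptf KD tumour, and the groups were far apart. The means were 10.77 ± 0.72 and 7.19 ± 0.21 (SD, n = 3 each). Efemp1 fell by 3.58 on the log2 scale (SE 0.35), 11.99-fold lower on the linear scale, and it had the fourth largest decrease of all genes tested. Controls also varied most in this gene of the 8, the tumour labelled control 2 lying 1.14 above the mean of the other 2. Without that tumour Efemp1 differed by -3.20 (SE 0.20) and was called. It was not called without control 3 (-3.63), Bptf KD 1 (-3.53), Bptf KD 2 (-3.71) or Bptf KD 3 (-3.52), where at most 10 genes were called in all.

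Fbln5, the other short fibulin measured, binds tropoelastin and integrins and is needed for elastic fibres to form. Its level was 8.41, 8.65 and 8.39 in the controls and 7.35, 7.37 and 7.80 in the Bptf KD tumours. The groups did not overlap. The difference was -0.98 (SE 0.17), so that controls were 1.97-fold higher, the second largest difference of the 8 and far smaller than that of Efemp1.

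The long fibulins Fbln1 and Fbln2 bind fibronectin and nidogens and occur in basement membranes as well as on elastic fibres. Fbln1 was at 7.65, 7.62 and 8.10 in the controls and at 6.95, 7.22 and 7.02 in the Bptf KD tumours on its brightest probe set. It was at 7.82, 7.22 and 8.23 against 6.89, 7.09 and 7.17 on the other. The groups did not overlap on either, with differences of -0.73 (SE 0.17) and -0.71 (SE 0.25), but on the latter the tumour labelled control 2 came within 0.05 of Bptf KD 3. Fbln2 was at 11.65, 10.89 and 11.72 in the controls and at 10.89, 10.44 and 10.72 in the Bptf KD tumours. The groups met at 10.89, the level of both the tumour labelled control 2 and Bptf KD 1. Its difference was -0.74 (SE 0.25) with all tumours and -1.0 (SE 0.15) without the tumour labelled control 2.

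Mfap2 and Mfap5 are small glycoproteins that bind fibrillin along the microfibril. Mfap2 was at 8.53, 8.70 and 8.85 in the controls and at 7.79, 8.03 and 8.06 in the Bptf KD tumours. Its groups were tight (8.69 ± 0.16 and 7.96 ± 0.15, SD, n = 3 each) and did not overlap, and its difference of -0.73 had the smallest SE of the 8 (0.14). Mfap5 was at 11.07, 11.22 and 11.47 in the controls and at 10.28, 10.85 and 9.91 in the Bptf KD tumours. Its groups did not overlap, though Bptf KD 2 lay only 0.22 below control 1, and the difference was -0.91 (SE 0.25). The other Mfap5 probe set gave 9.32, 9.02 and 10.06 against 8.76, 8.62 and 8.77, also without overlap, and a difference of -0.75 (SE 0.26).

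Eln, which encodes elastin itself, and Mfap4, a protein with a fibrinogen-like domain that binds elastin, differed least. Eln was at 8.12, 8.64 and 7.95 in the controls and at 7.32, 7.32 and 8.36 in the Bptf KD tumours. Bptf KD 3 lay above controls 1 and 3, and the difference was -0.57 (SE 0.33). On the other Eln probe set the levels were 6.74, 7.26 and 6.82 against 6.88, 6.75 and 7.09, mixed between the groups, with a difference of -0.03 (SE 0.17). The Eln probe sets thus disagreed on the size. Mfap4 was at 6.37, 7.18 and 6.73 in the controls and at 6.51, 6.18 and 6.65 in the Bptf KD tumours, close to the dim level throughout, with a difference of -0.31 (SE 0.23). No detection call comes with these values, and the share of background in so dim a signal is unknown. Without the tumour labelled control 2, Eln differed by -0.37 (SE 0.32) and Mfap4 by -0.10 (SE 0.18). Eln differed by -0.92 without Bptf KD 3, and Mfap4 by -0.51 without control 1.

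**Figure D2:**
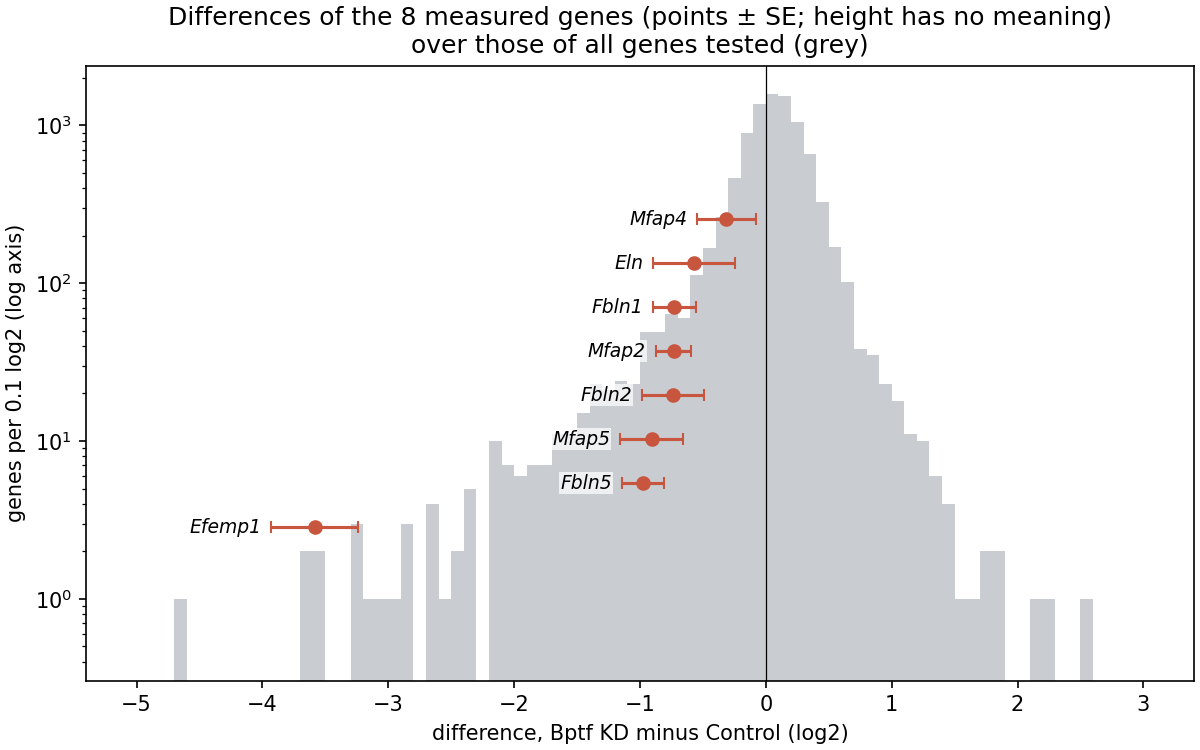
Difference between Bptf KD and control (log2, horizontal axis) of the 8 measured genes as red points with limma's SE, over a histogram of the differences of all 9249 genes tested (grey, number of genes per bin on a log axis; the height of a point has no meaning). Efemp1 sits at -3.58, the other 7 genes lie between -0.98 and -0.31, and the middle 90% of all genes spans -0.56 to 0.48.

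Within a group the genes deviated in different directions. In the tumour labelled control 2, Efemp1 (1.14), Mfap4 (0.63), Eln (0.61) and Fbln5 (0.25) lay above the mean of the other 2 controls. Fbln2 (-0.80), Fbln1 (-0.26) and Mfap5 (-0.05) lay below it in that tumour, and Mfap2 (0.01) was level with it. In Bptf KD 3, Eln lay 1.04 above the mean of the other 2 Bptf KD tumours while Mfap5 differed from it by -0.66. The mean over the 8 genes was 8.99, 9.30 and 9.24 in the controls and 8.02, 8.11 and 8.20 in the Bptf KD tumours. The group means of these values were 9.18 ± 0.17 and 8.11 ± 0.09 (SD, n = 3 each).

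Likeness to other genes was read as the root mean square distance between centred log2 levels over the 6 tumours. The 5 genes nearest to Efemp1 were Cidec, a lipid droplet protein (distance 0.23), the apolipoprotein Apod (0.39), lipoprotein lipase Lpl (0.43), Cdo1, a cysteine dioxygenase (0.44), and the chemokine Cxcl12 (0.45). The 5 nearest to the mean of the 8 genes were the thrombospondin Thbs3 (0.08), the dipeptidase Dpep1 (0.09), the fibrillar collagen Col3a1 (0.10), Dram1 (0.10) and Plagl1 (0.11). The distance uses levels that are not scaled, so genes with a group difference of about the same size come out nearest: -3.68 to -2.70 for the 5 near Efemp1 and -1.18 to -0.88 for those near the mean. Cidec lay below the dim level in all 3 Bptf KD tumours, so its distance is uncertain.

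Marker lists of other cells did not all go the same way. Over all genes tested, 40.4% had negative differences, 0.66% were called lower and 13.5% had an unadjusted p under 0.05 in limma. Of 12 fibroblast markers (12 measured) all had negative differences, with a median of -0.90. Limma gave 10 of them an unadjusted p under 0.05 and called 3 lower. The 3 were Dpt, Col1a1 and Col3a1. The differences ran from -2.38 (Dpt) to -0.24 (Pdgfra, whose groups overlapped), and Pdgfrb differed by -0.38. As a list the fibroblast markers averaged 10.5 to 10.9 (control) and 9.44 to 9.73 (Bptf KD). Of 10 adipocyte markers 8 were measured, all with negative differences and 5 called lower (8 at an unadjusted p under 0.05 in limma). Their median was -2.75, with list means of 9.51 to 10.4 against 6.40 to 7.64. None of the measured fibroblast or adipocyte markers had a mean over all tumours below the dim level, though Cidec, Lep and Pparg lay below it in every Bptf KD tumour, so that the adipocyte median is uncertain in size. Their part in the result was not tested. Of 8 smooth muscle and pericyte markers 7 had negative differences and 0 were called (3 at an unadjusted p under 0.05 in limma), with list means of 8.70 to 9.02 against 8.56 to 8.76. Endothelial markers had list means of 7.44 to 7.71 against 7.51 to 7.62, with 6 of 8 positive, a median of 0.12 and 1 called lower (Tek, an angiopoietin receptor, whose Bptf KD levels of 5.63 to 5.66 were dim, so that its size is uncertain). The positive ones included Cldn5, a claudin of endothelial tight junctions, which differed by 0.76 and did not pass (limma adjusted p = 0.199). Of the endothelial list 2 were at an unadjusted p under 0.05 in limma. Macrophage markers had 11.7 to 12.1 against 11.9 to 12.2, with 6 of 8 positive and 0 called. The 3 at an unadjusted p under 0.05 in limma went both ways: Mrc1 (-0.75) was lower, and C1qb (0.40) and C1qc (0.40) were higher. For the epithelial markers 7 of 8 had positive differences, with a median of 0.60 and 0 called (3 at an unadjusted p under 0.05 in limma). Cldn4, Cldn3, Cldn7 and Epcam differed by 1.86, 1.20, 1.12 and 0.96, but Cdh1, Krt18, Krt8 and Krt19 by 0.23, 0.19, 0.02 and -0.33.

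Skeletal muscle and keratinocyte markers set apart the tumour labelled control 2. The list mean of 10 muscle markers was 11.9 there, beside 9.13 (control 1), 6.36 (control 3) and 6.10 to 9.57 (Bptf KD). That of the 4 keratinocyte markers above the dim level was 10.3 against 7.17 and 7.40 in the other controls, while Krt1, Krtdap and Dsc3 were dim. All 10 muscle markers had negative differences (median -1.44), and so had these 4 keratinocyte markers (median -0.81). Without the tumour labelled control 2 the medians were -0.045 and 0.19. Limma called 0 of either list (0 at an unadjusted p under 0.05). With the muscle list mean as a covariate, the median difference of the 8 genes was -0.84 and Efemp1 was still called lower.

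**Figure D3:**
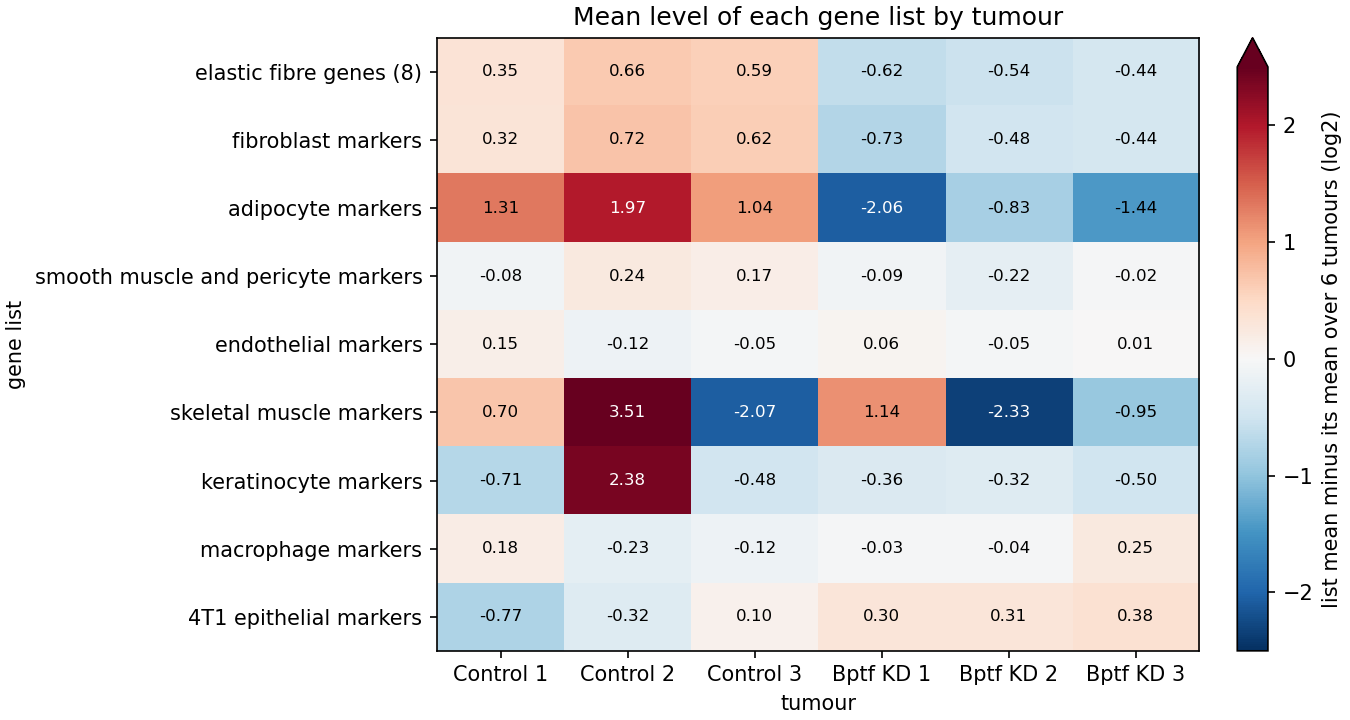
Mean log2 level of each gene list in each tumour, as the difference from that list's mean over the 6 tumours (red above, blue below; the number is printed in each cell and the colour scale stops at 2.5). The 8 elastic fibre genes run from 0.35 to 0.66 in the controls and from -0.62 to -0.44 in the Bptf KD tumours, beside 0.32 to 0.72 and -0.73 to -0.44 for fibroblast markers, while muscle markers reach 3.51 in the tumour labelled control 2.

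Other genes of elastic fibre assembly were taken from a list of 53, of which 43 had a probe set and 38 were tested. The list was chosen by function, but with earlier results of these data known, so its counts and p-values are a description. Limma called 4 of the 38 lower and 0 higher, with 10 lower and 3 higher at an unadjusted p under 0.05. Over all genes 0.66% were called lower, 13.5% had an unadjusted p under 0.05 in either direction and 40.4% were negative. The list's median difference was -0.12, and 23 of 38 were negative. The lower genes were a fibrillin, a nidogen, a proteoglycan and a protease, rather than 1 class.

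Fbn2, the second fibrillin, was at 7.65, 7.71 and 8.02 in the controls and at 6.52, 5.90 and 6.62 in the Bptf KD tumours. It fell by 1.45 on the log2 scale (limma adjusted p = 0.0470), lower in 3 of 3 tumours, with 1 of these below the dim level, so that the size is uncertain. Of the other microfibril partners, Tgfb3 differed by 0.68 (limma adjusted p = 0.248), and the latent TGF-beta binding proteins Ltbp1, Ltbp2, Ltbp3 and Ltbp4 differed by 0.15, 0.28, 0.42 and -0.41. None of these 5 passed in the main setting, though Tgfb3 passed with array weights. That setting, named again below, called 18.2% of all genes, and its iteration stopped before it converged, so passing there says little about a gene.

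The cross-linking enzymes Lox and Loxl1, which oxidise lysines of elastin and collagen, came close to the threshold. Lox was at 11.74, 11.91 and 12.12 in the controls and at 11.22, 10.90 and 10.65 in the Bptf KD tumours (difference -1.0, limma adjusted p = 0.0712). Its other 2 probe sets gave smaller differences of -0.71 and, on a dim probe set, -0.53. Loxl1 was at 9.66, 10.09 and 10.05 against 8.77, 9.12 and 8.80 (difference -1.04, limma adjusted p = 0.0544). Neither overlapped between the groups. Both passed with array weights and without the tumour labelled control 2, and Loxl1 also with the replicate block and without control 1. Loxl3 (0.02), Loxl4 (-0.16) and the copper transporter Atp7a (-0.06) did not pass.

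Among matrix partners, Nid1, a nidogen that binds fibulins in basement membranes, was at 10.39, 10.35 and 10.77 in the controls and at 9.33, 9.03 and 9.44 in the Bptf KD tumours. It fell by 1.24 (limma adjusted p = 0.0435), and its other probe set gave -0.79. The proteoglycan Dcn was at 13.19, 13.78 and 13.42 against 11.82, 12.07 and 11.40, and fell by 1.70 (limma adjusted p = 0.0385). Both were lower in 3 of 3 tumours. The other 7 did not pass: Tnxb, a tenascin (-1.39, limma adjusted p = 0.0616), the proteoglycans Vcan (-1.10) and Bgn (-0.77), perlecan Hspg2 (-0.19), Nid2 (0.07), fibronectin Fn1 (0.20) and Ecm1 (0.42). Tnxb, and Vcan on its brightest probe set, did not overlap between the groups. Other Vcan probe sets gave -1.08 and -0.69, and on the latter the groups overlapped. Tnxb lay below the dim level in all 3 Bptf KD tumours, so that its size is uncertain. Tnxb passed with array weights, without control 1 and without the tumour labelled control 2. Bgn passed with array weights and without the tumour labelled control 2, and Vcan with array weights.

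Of the elastin-degrading proteases, the gelatinase Mmp2 was at 10.52, 10.90 and 11.11 in the controls and at 9.53, 9.42 and 9.64 in the Bptf KD tumours. It fell by 1.31 (limma adjusted p = 0.0392), and its other probe set gave -1.35. The gelatinase Mmp9 differed by -1.13 (limma adjusted p = 0.326) and the macrophage elastase Mmp12 by 0.64 (limma adjusted p = 0.378). The other Mmp9 probe set gave -0.71, and Mmp9 passed with array weights. Among integrin receptors, Itgb5, a partner of the alpha-v chain, was at 10.97, 10.96 and 10.72 in the controls and at 11.64, 11.63 and 11.83 in the Bptf KD tumours. It differed by 0.82 (limma adjusted p = 0.0512), and its other 3 probe sets gave 0.80, 0.87 and 0.81. It passed with no filter, with the mean of its probe sets, with array weights and without the tumour labelled control 2. Itgav itself differed by -0.27 (limma adjusted p = 0.582). Emilin1, the only emilin or multimerin tested, differed by -0.15 (limma adjusted p = 0.680), and its other probe set by 0.17.

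The calls of Fbn2, Nid1, Dcn and Mmp2 were lost once the mean of the muscle list entered the model, and without control 3 or any 1 of the Bptf KD tumours. Those of Fbn2 and Nid1 were also lost without control 1, that of Fbn2 with no filter and that of Nid1 with the mean of its probe sets. Their directions held in each. With the covariate the differences were -1.44 for Fbn2, -1.28 for Nid1, -1.65 for Dcn and -1.34 for Mmp2, about as large as without it.

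**Figure D4:**
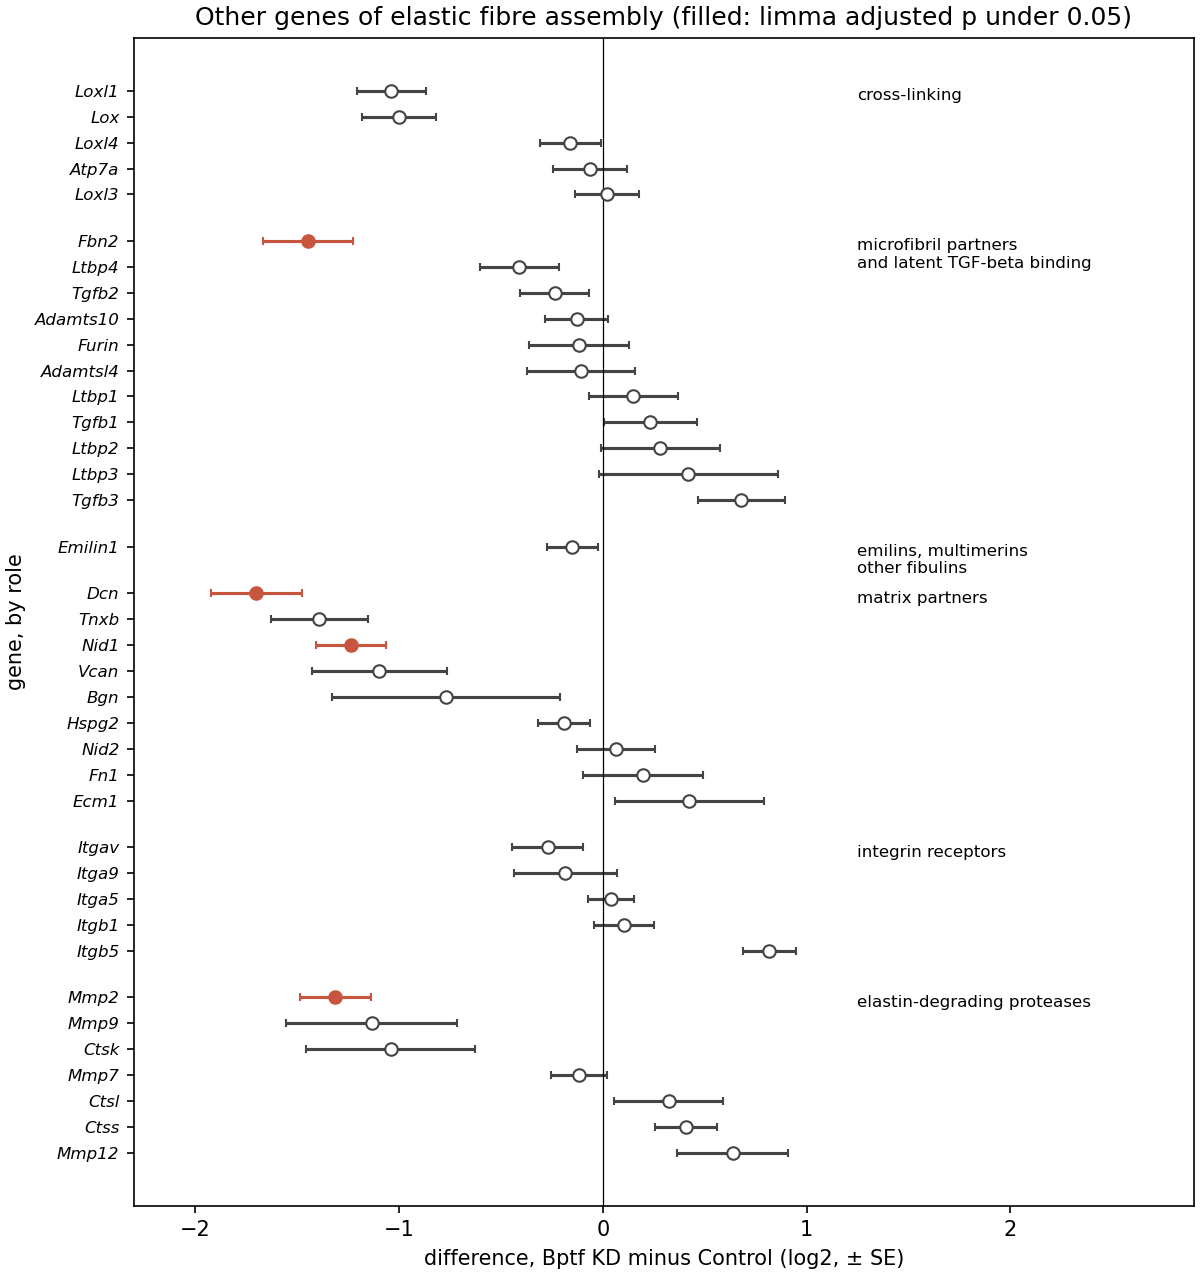
Difference between Bptf KD and control (log2, with limma's SE) of the 38 other genes of elastic fibre assembly that were tested, ordered by role; filled red points have a limma adjusted p under 0.05. The 4 filled genes are Fbn2, Dcn, Nid1 and Mmp2, between -1.70 and -1.24, and Itgb5 lies farthest to the right at 0.82.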

How the data were processed

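Log2 expression values were deposited by the authors, made with RMA (no version stated) per the submitters' processing notes. No base is stated for the logarithm, and 2, RMA's own, was assumed. RMA equalises the distributions of the arrays, so levels are relative. Per the labels' protocols, 500 ng of total RNA per tumour was used after removal of necrotic tissue. Of 22690 probe sets 64 were controls. Of the rest the platform annotation gave 1 gene for 20380, several for 691 and none for 1555. Symbols were checked against RefSeq (GRCm38.p6).

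The brightest probe set stood for a gene, and those in the lowest 30% of means were left out. Bptf KD and control were compared with limma 3.58.1 in R 4.3.3 (lmFit, eBayes), with Benjamini-Hochberg adjustment over 9249 genes and a threshold of 0.05. The SE is limma's moderated one. Single probe sets were read from a fit of all 22626. The procedure was tested on simulated data.

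Members, lists and tests were chosen with earlier results of these data known. Named genes outside the members were all called genes of the assembly list, the 2 with the smallest p in each sub-list, Bptf and the 5 nearest genes by distance. Every other gene named with a value, or as dim, was named after its values were seen. The number of arrays limits the precision. The 16 alternatives were other filters, probe set rules and normalizations, trended and robust variances, array weights, the replicate block, a muscle covariate and leaving out each tumour.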

Additional observations from a re-analysis of the deposited data

How the results depend on the processing

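The 8 measured genes kept a negative difference in all 129 values computed for them under other settings (6 of the 8 remained under the stricter filter). These values include -0.03 (SE 0.17) on the other Eln probe set. Efemp1 was called in the main setting, in all 10 settings that kept the 6 tumours, and without control 1 or 2. All settings reuse tumours with which the genes were gathered, so nothing is read from these signs or calls. The count of genes called was 75. It was 42 with the stricter filter, 46 with the muscle covariate and 1680 (18.2% of genes) with array weights, whose iteration stopped before it converged. Of the 8 genes 1 was called, but 6 with array weights, which also moved their median difference to -0.93. Of the assembly list 4 were called, 15 with array weights and 0 with the muscle covariate, where the 4 differed by -1.65 to -1.28. Leaving out each tumour in turn gave 0 to 412 genes called, 0 to 5 of the 8 genes and 0 to 9 of the assembly list. The highest count of each came without the tumour labelled control 2, and 0 genes were called by limma without Bptf KD 3 (742 at an unadjusted p under 0.05). The median of the 8 lay between -0.85 and -0.68. The sign of Emilin1 turned, to 0.012, with the mean of its probe sets. The causes were not tested. The labels do not say that replicate numbers pair the tumours. Deviations of same-numbered tumours from their group means had correlations of 0.01, 0.28 and 0.37, beside 0.35 for control 1 with Bptf KD 3. Tumour 1 of either group did not correlate best with its own number. With the replicate block 107 genes were called, 1 of the 8 (Efemp1) and 5 of the assembly list, Loxl1 being added.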
